A study of Homo sapiens with 19 samples.

Results

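V5-tagged wild-type (WT) E2F1 was mapped by chromatin immunoprecipitation with sequencing (ChIP-seq) in C4-2 cells that received the LSD1 inhibitor GSK2879552 on top of doxycycline, and the sites were compared with those of cells given doxycycline alone. C4-2 is an established castration-resistant prostate cancer cell line. The material is every interval of the 2 lists the authors deposited for these groups, 3874 for Dox-GSK and 64025 for Dox. Together they hold 67899 of the 203381 intervals in the 10 lists of the series. An interval is a stretch of genome that the peak caller marked as enriched.

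Both groups were the same C4-2 line, which carries a tetracycline-controlled, V5-tagged WT E2F1, kept in RPMI 1640 with 5% charcoal-stripped serum and precipitated with an antibody to V5. Dox-GSK cells had 0.25 ug/ml doxycycline for 3 days and then 50 uM GSK2879552 for 24 hours, and Dox cells had the same doxycycline alone. Each group had 2 libraries and 1 deposited list, so no value below carries a replicate error and no p-value was computed. RB, the retinoblastoma protein, was mapped in untreated C4-2 (2 libraries) and in untreated VCaP (1 library), another prostate cancer line. The deposited names of both V5 lists carry the word siRB where the treatment labels say doxycycline. Here each list keeps the treatment its label gives, and it is not settled whether RB was silenced in these cells. The labels also do not say whether the line is 1 clone or a pool, or how much tagged E2F1 it held. Interval lists give no expression, so the cell type could not be checked against its markers.

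E2F1 is a transcription factor that binds the promoters of genes for DNA replication and cell division. RB binds the activation domain of E2F1 and holds its targets down until cyclin-dependent kinases phosphorylate RB. LSD1, also called KDM1A, is a flavin-dependent demethylase that acts on histone lysines, and also on other proteins, as part of corepressor complexes. GSK2879552 blocks it irreversibly. The series asks how RB, E2F1 and LSD1 relate in castration-resistant prostate cancer.

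The Dox-GSK list was much shorter and also shallower. It covered 906 kb, against 13112 kb in Dox, and its intervals numbered 0.0605 of those in Dox. The reads at each summit and the local background could be solved from the deposited fold enrichment (a linear ratio of summit reads to local background) and p-value. They put the depth at 0.812 reads per kilobase in Dox-GSK and 1.40 in Dox. Most intervals in either list were thin, with 50.2% of Dox-GSK intervals and 66.2% of Dox intervals resting on at most 5 summit reads. If the Dox reads were thinned to the Dox-GSK depth, 38444 Dox intervals would be expected to pass the lowest −log10 p of the Dox-GSK list. The number ratio would then be 0.101. This thins only the intervals already called, by a depth taken from the background, and does not match the lists in enrichment, duplicate reads or q threshold.

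Few places were marked in both. Of the Dox-GSK intervals, 2501 had no overlap of even 1 base with a Dox interval (64.6%) and are called gained. The other 1373 were shared (35.4%, 95% Wilson interval 34.0 to 37.0%, which covers counting error over intervals only). Of the Dox intervals, 62650 were absent from the Dox-GSK list (97.9%) and are called lost, and 1375 were shared (2.15%). The boundary between these classes was sharp. Only 28 gained intervals lay within 100 bases of a Dox interval and 120 within 1000 bases, while 35 and 228 lost intervals lay that close to a Dox-GSK interval. Of the 1386 overlapping pairs, 31 overlapped by at most 50 bases, and the median overlap was 190.5 bases.

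Shared intervals were stronger than the others of their list by median. Their median was 9 summit reads in Dox-GSK and 9 in Dox, against 5 for gained and 5 for lost intervals. Part of this came with high local background, at least 10 times the lowest of the list. It was present at 411 shared Dox-GSK and 399 shared Dox intervals, against 13 gained and 259 lost ones. In the 957 overlapping pairs where both intervals had low background, the medians were 6 reads in Dox-GSK and 7 in Dox, with folds of 5.78 and 5.55. Median fold enrichment was 5.59 in Dox-GSK and 5.48 in Dox for shared intervals, 5.04 for gained and 4.69 for lost intervals. Fold values are the authors' own, and each belongs to its list. The largest fold was 14.6 among gained intervals and 13.5 among lost intervals, while shared intervals reached 29.0 in Dox-GSK and 30.2 in Dox. Of the lost intervals, 37317 (59.6%) would be expected to pass at the Dox-GSK depth, against 1126 (81.9%) of the shared Dox intervals.

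Whether a Dox interval was found again in Dox-GSK went with its strength and, at any strength, with RB. Among Dox intervals with 3 to 4 summit reads, 48.6% of those at a C4-2 RB interval (18 of 37) were found again, against 0.608% elsewhere (116 of 19092). With 20 or more reads, 73.7% at RB (398 of 540) and 39.3% elsewhere (68 of 173) were found again. Low-background intervals of that strength, under 10 times the lowest background of their list, were found again at 87.3% at RB (62 of 71) and 52.9% elsewhere (18 of 34). In all, 35.4% of the 1007 Dox intervals at RB were lost (95% Wilson interval 32.5 to 38.4%), against 98.9% of the 62931 Dox intervals with no RB interval of either cell line. In the other direction, up to 19 reads, RB did not go with a higher share. At 6 to 7 reads, 19.4% of Dox-GSK intervals at RB (48 of 247) were found in Dox, against 30.4% elsewhere (156 of 514). At 10 to 14 reads the shares were 48.3% (102 of 211) and 68.1% (62 of 91). Above that, Dox-GSK intervals were nearly all in Dox, 97.1% of those with 20 or more reads.

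**Figure D1:**
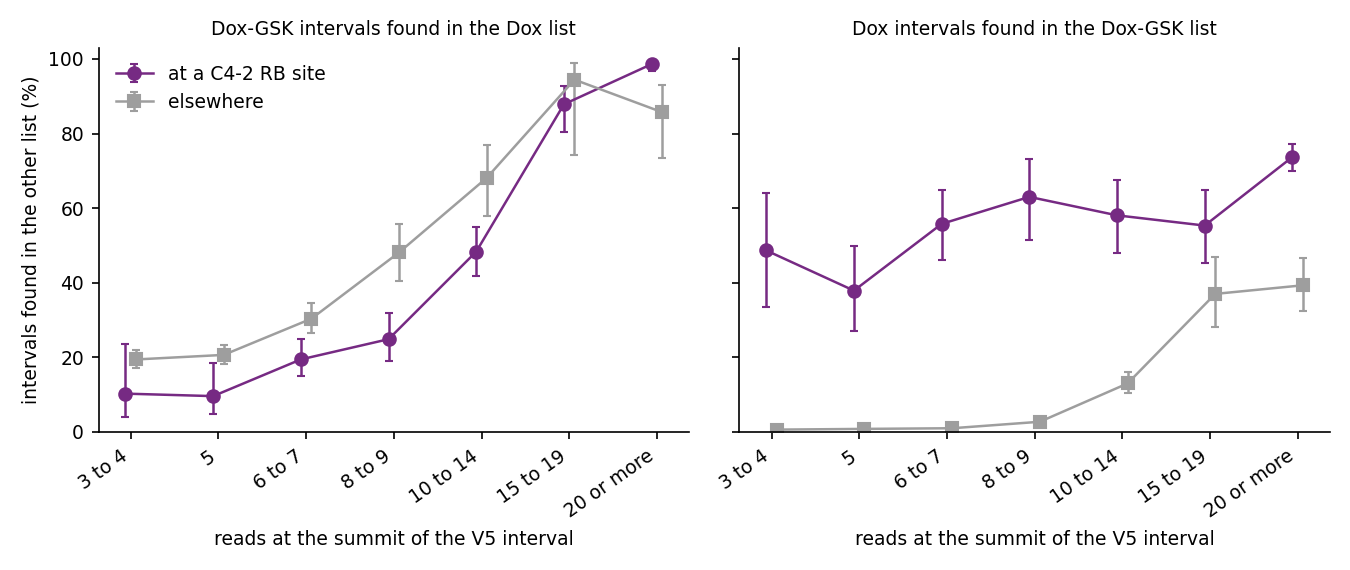
Share of Dox-GSK intervals found in the Dox list (left) and of Dox intervals found in the Dox-GSK list (right), in percent, by the number of reads at the summit of the V5 interval; purple circles are intervals at a C4-2 RB interval, grey squares all others, and bars are 95% Wilson intervals. On the right the purple points lie between 37.9% and 73.7% and the grey points start at 0.608%; on the left the grey points lie above the purple ones up to 15 to 19 reads.

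Gained intervals with 8 to 19 summit reads were mostly at RB, as were Dox-GSK intervals of that strength in general. The gained set as a whole was not. A C4-2 RB interval was present at 557 of the 2501 gained intervals (22.3%), 356 of the 62650 lost intervals (0.568%) and 652 of the 1373 shared Dox-GSK intervals (47.5%). By summit reads, the share of gained intervals at RB was 4.45% at 3 to 4 reads, 8.45% at 5, 35.7% at 6 to 7, 61.0% at 8 to 9, 79.0% at 10 to 14, 92.9% at 15 to 19 (13 of 14) and 41.7% at 20 or more (5 of 12). In that last group, all 4 gained intervals of low background were at RB, so the lower share there came from places of high background. Of the 164 gained intervals with 10 or more reads and any background, 127 were at RB (77.4%). Among all Dox-GSK intervals, 173 of 333 were at RB at 8 to 9 reads, 211 of 302 at 10 to 14 and 677 of 835 at 10 or more. Strong intervals at RB were thus not particular to the gained set. The lost intervals also had more RB with strength, from 0.100% at 3 to 4 reads up to 57.5% at 20 or more (142 of 247). Of the 25 lost intervals with 20 or more reads and low background, 9 were at RB. Gained intervals at RB had a median of 7 summit reads and a fold of 6.04, against 5 reads and 4.96 for gained intervals with no RB interval of either line.

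The RB sites on which the lists differed were of different kinds. RB was found at 9146 places in C4-2, of which 5420 also had an RB interval in VCaP and 3726 did not. Taking all 9146, a V5 interval was present at 1271 in Dox-GSK (13.9%, 95% Wilson interval 13.2 to 14.6%) and at 1083 in Dox (11.8%, 11.2 to 12.5%). Both lists had one at 701 sites, Dox-GSK alone at 570 (6.23%) and Dox alone at 382 (4.18%). So the list with 0.0605 of the intervals, and the lower depth, held V5 at more RB sites. With only V5 intervals of 8 or more summit reads, 908 sites in Dox-GSK and 871 in Dox had one, a difference of 0.405 percentage points. Its 95% counting interval holds 0, but treats the lists as independent although both were scored on the same sites. At RB sites of both lines, V5 was in Dox-GSK alone at 447 and in Dox alone at 117, a ratio of 3.82. At RB sites of C4-2 alone the order was the opposite, 123 in Dox-GSK alone and 265 in Dox alone, a ratio of 0.464. RB sites of VCaP alone, 11892 places, had V5 in Dox-GSK alone at 119 and in Dox alone at 58.

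Part of this involved places of high background, meaning 10 or more times the lowest local background that 5 or more intervals of a list share. It was present at 424 Dox-GSK intervals, 658 Dox intervals and 437 C4-2 RB intervals. Among the 5233 low-background RB sites of both lines, Dox-GSK had V5 at 604 (11.5%, 10.7 to 12.4%) and Dox at 245 (4.68%, 4.14 to 5.29%), with 446 in Dox-GSK alone and 87 in Dox alone. Among the 3476 low-background RB sites of C4-2 alone, Dox-GSK had V5 at 459 (13.2%, 12.1 to 14.4%) and Dox at 561 (16.1%, 14.95 to 17.4%), with 121 in Dox-GSK alone and 223 in Dox alone. When V5 intervals of high background were left out as well, the ratio at sites of both lines was 5.65 (446 over 79). The ratio at sites of C4-2 alone was then 0.844 (124 over 147), with a counting interval of 0.665 to 1.07 that holds 1. When each list was reduced to its 1000 intervals with the best −log10 q, these ratios were 9.08 and 0.920. The excess of Dox-GSK at RB sites of both lines was thus present in each of these counts, and the excess of Dox at sites of C4-2 alone was not distinguishable from counting error in the last pair of them.

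**Figure D2:**
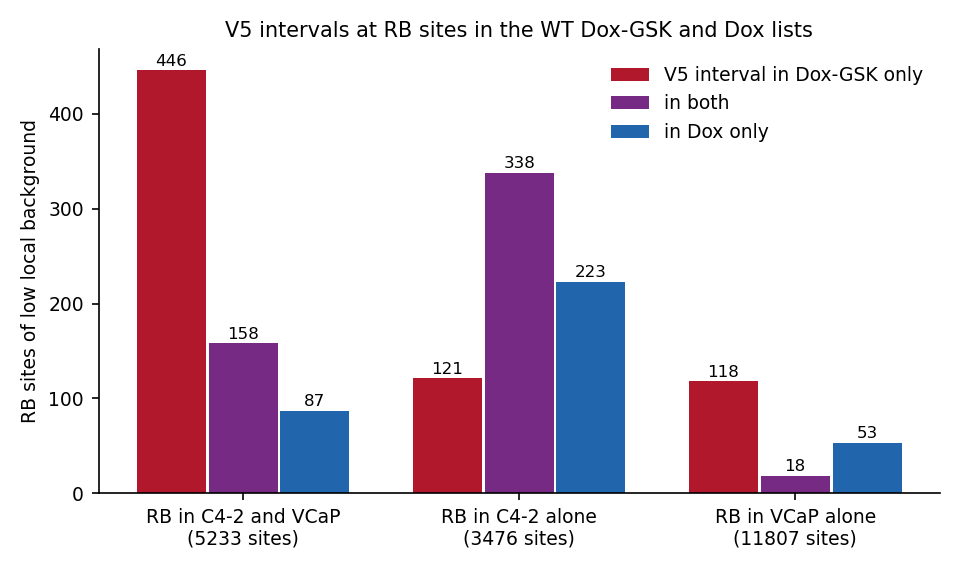
Number of low-background RB sites with a V5 interval in Dox-GSK only (red), in both lists (purple) and in Dox only (blue), for RB sites of both cell lines, of C4-2 alone and of VCaP alone. Bars start at 0 and carry their counts; the tallest bar is Dox-GSK only (446) at sites of both lines and the sites in both lists (338) at sites of C4-2 alone.

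Sites of both lines were 78.7% of the 567 low-background RB sites with V5 in Dox-GSK alone. They were 31.9% of the 496 sites with V5 in both lists, 28.1% of the 310 with V5 in Dox alone and 61.9% of the 7336 with V5 in neither. At sites of both lines the RB intervals had a median of 18 reads where V5 was in Dox-GSK alone and 18 where it was in Dox alone. At sites of C4-2 alone they had 14 where V5 was in Dox-GSK alone and 18 where it was in Dox alone, with median RB folds of 5.61 and 6.56 for these outcomes. Where both lists had V5 the median was 23 reads at sites of both lines and 25 at sites of C4-2 alone. The median RB width at sites of both lines was 241.5 bases where V5 was in Dox-GSK alone, against 201 bases where it was in Dox alone. At sites of C4-2 alone these widths were 166 and 136 bases.

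V5 was more frequent at stronger RB sites in both lists. The RB sites were put into 4 groups of rising −log10 q. At low-background sites of both lines Dox-GSK had V5 at 4.89% and Dox at 1.956% of the weakest group, and Dox-GSK at 22.1% and Dox at 9.96% of the strongest. Dox-GSK was above Dox in all 4 groups, and the Wilson intervals of the lists did not overlap in any. The weakest group of sites of C4-2 alone had V5 at 4.37% in Dox-GSK and at 2.75% in Dox, with Wilson intervals that overlap (3.29 to 5.78% and 1.92 to 3.93%). Both lists were scored on the same sites there, with V5 in Dox-GSK alone at 31 and in Dox alone at 14. The next group had V5 at 5.90% in Dox-GSK and 6.33% in Dox. In the strongest group Dox-GSK had V5 at 38.5% and Dox at 48.7%, and the Wilson intervals, 35.03 to 42.2% and 45.0 to 52.3%, did not overlap.

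**Figure D3:**
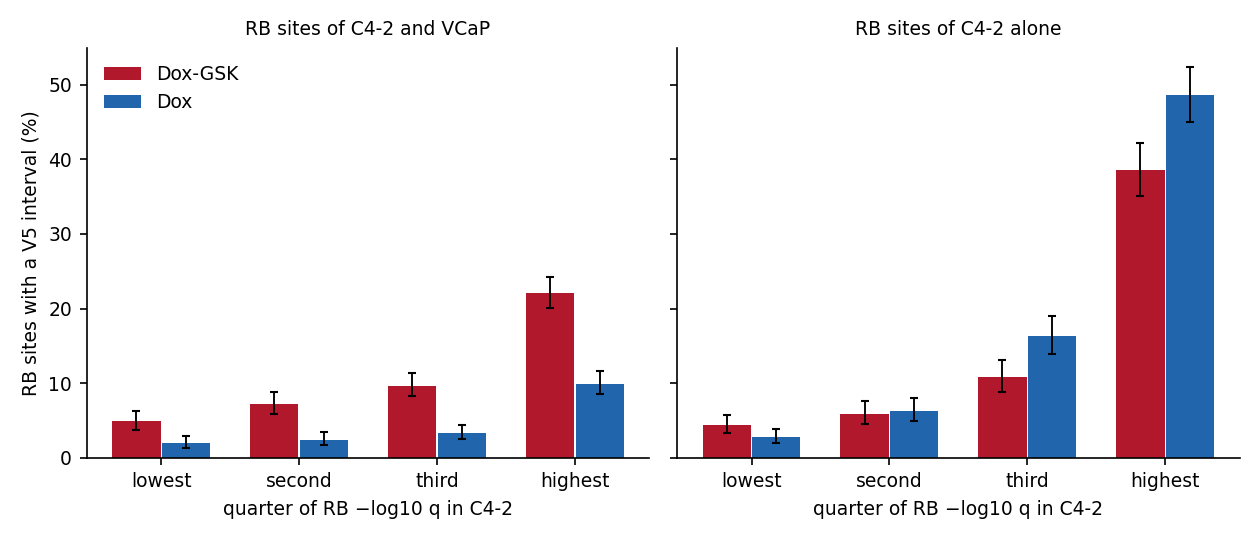
Share of low-background RB sites with a V5 interval, in percent, in Dox-GSK (red) and Dox (blue), over 4 groups of rising RB −log10 q in C4-2; bars are shares with 95% Wilson intervals, left for RB sites of both cell lines and right for those of C4-2 alone. Dox-GSK is higher in every group on the left (22.1% against 9.96% in the strongest). On the right it is higher in the weakest group (4.37% against 2.75%) and lower in the others (10.8% against 16.3% in the third, 38.5% against 48.7% in the strongest).

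Where both lists had an interval, fold enrichment leaned towards Dox-GSK at RB sites of both lines. Of 957 low-background pairs, 484 had the higher fold in Dox-GSK (50.6%). The RB sites of both lines held 118 pairs, and 88 of them had it (74.6%, 95% Wilson interval 66.0 to 81.6%), with a median fold of 7.40 in Dox-GSK and 5.63 in Dox and a median log2 ratio of 0.32. Of these pairs 37 were at least 1.5-fold higher in Dox-GSK and 4 in Dox. The RB sites of VCaP alone held 19 pairs, of which 14 were higher in Dox-GSK (73.7%, 51.2 to 88.2%), with a median log2 ratio of 0.13. For RB sites of C4-2 alone, 79 of 169 pairs were higher in Dox-GSK (46.7%), with a median fold of 7.85 in Dox-GSK and 8.04 in Dox, and 21 were at least 1.5-fold higher in Dox-GSK and 12 in Dox. Away from RB, 303 of 651 pairs were higher in Dox-GSK (46.5%), with median folds of 5.20 in Dox-GSK and 5.00 in Dox and a median log2 ratio within pairs of -0.06, which is of the opposite sign. Here 32 were at least 1.5-fold higher in Dox-GSK and 68 in Dox. The 144 high-background pairs at sites of both lines differed less, with a median log2 ratio of 0.06 and 84 higher in Dox-GSK (58.3%). The lists differ in depth, and ratios of fold between them also carry that difference.

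**Figure D4:**
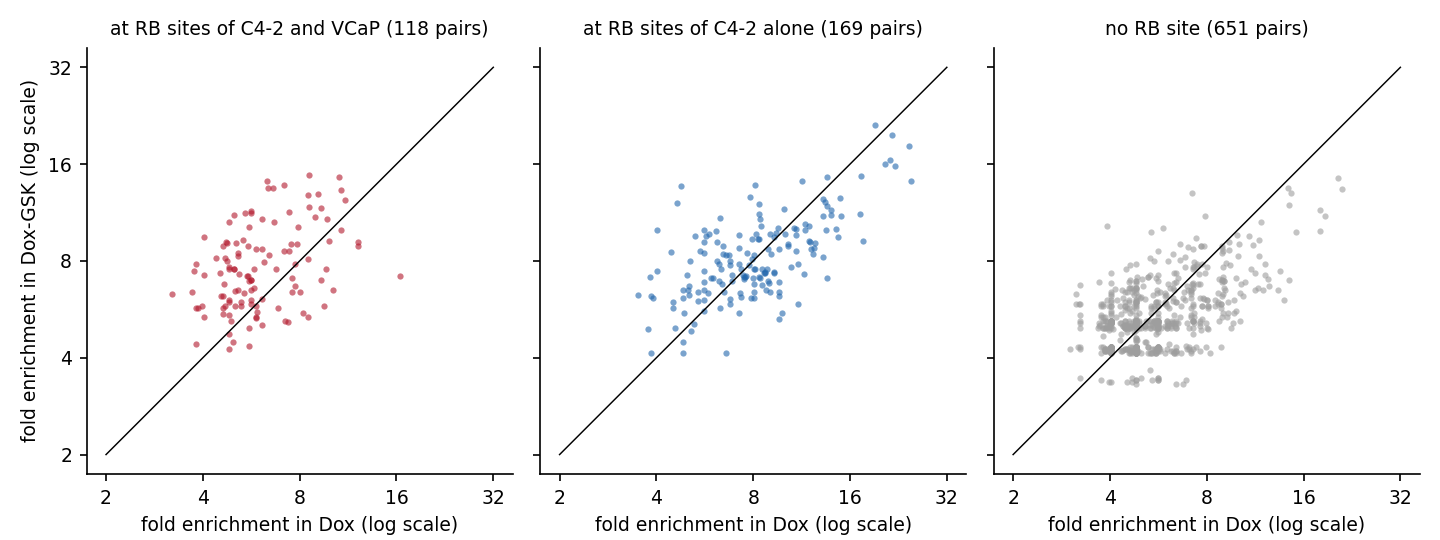
Fold enrichment in Dox-GSK (vertical, log scale) against fold enrichment in Dox (horizontal, log scale) for low-background overlapping pairs; each point is 1 pair, and the line marks equal fold. At RB sites of both lines (left, 118 pairs) 88 points lie above the line, against 79 of 169 at sites of C4-2 alone (middle) and 303 of 651 with no RB interval (right).

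Distances between V5 and RB summits were taken only where the 2 intervals overlapped, which by itself keeps them short. Among low-background V5 intervals the median distance was 51 bases for gained intervals at sites of both lines and 54.5 bases at sites of C4-2 alone. It was 56.5 and 18 bases for lost intervals at these kinds of site, and 43 and 17 bases for shared Dox-GSK intervals. Lost and shared V5 summits at sites of C4-2 alone were thus the nearest to RB, with 77.2% and 66.5% within 50 bases, against 46.6% of gained ones there. RB intervals were also narrower at low-background sites of C4-2 alone. Their median width was 136 bases with V5 in Dox alone and 151 with V5 in both lists, against 201 and 274 at sites of both lines. The part of width in these distances was not tested.

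At low background, the gained intervals of highest −log10 q were RB sites that also carried V5 in other WT lists. The interval chr1:51434175-51434475 (hg19, as are all positions here) had a fold of 14.6 on 24 summit reads in Dox-GSK and no interval in Dox. RB there had a fold of 11.99 in C4-2 and an interval in VCaP. The next, chr19:14016782-14017074, had a fold of 12.5 on 22 reads in Dox-GSK and none in Dox, and chr16:28962056-28962375 had 12.1 on 21 reads and none in Dox. These 3 were RB sites of both lines, and of the 10 strongest gained intervals at RB, 7 were. All 10 had an interval in untreated WT cells and 8 had one in WT cells with GSK2879552 alone, while 2 had one in K185R Dox-GSK, 2 in K185R Dox, 5 in K185R GSK and 4 in untreated K185R cells. K185R is a mutant E2F1 in which a lysine is replaced by arginine. At chr12:20704277-20704601 every V5 list but Dox had an interval, with a fold of 11.2 on 14 reads in Dox-GSK and 27.8 for RB in C4-2.

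Gained intervals away from C4-2 RB were weaker. The strongest at low background, chr1:22109452-22109790, had a fold of 9.70 on 15 reads in Dox-GSK and none in Dox. It overlapped an RB interval of VCaP, as did chr7:127292002-127292285 (9.86 on 13 reads), and 4 of the 10 strongest of this kind did so in all. The strongest low-background one with no RB interval in either line was chr7:38948614-38948859, with a fold of 9.67 on 12 reads in Dox-GSK. It also had an interval in WT and in K185R cells given GSK2879552 alone.

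The strongest lost intervals at low background were mostly RB sites of C4-2 alone or places on chromosome Y. Of the 10 strongest at RB, 9 were at sites of C4-2 alone and 5 were on chromosome Y. The interval chrY:58869502-58869811 had none in Dox-GSK and a fold of 12.2 on 32 reads in Dox. Next came chr9:97700108-97700413, with none in Dox-GSK and a fold of 13.5 on 23 reads in Dox, and an interval in all V5 lists but Dox-GSK. Away from C4-2 RB the strongest, chr2:133016275-133016581, had none in Dox-GSK and a fold of 11.8 on 38 reads in Dox. It too was in all V5 lists but Dox-GSK. Beside it stood chr1:156654987-156655305 (13.4 on 26 reads in Dox) and 6 intervals on chromosome Y. Of the 10 strongest away from C4-2 RB, 2 overlapped an RB interval of VCaP. All 20 strongest, at C4-2 RB and away from it, had an interval in untreated WT and in untreated K185R cells. Chromosome Y held 4 gained, 54 shared and 124 lost intervals, which were 0.160%, 3.93% and 0.198% of these classes. Of its 178 Dox intervals 124 were lost, a lower share than the 62650 of 64025 over all chromosomes (97.9%). It held 57 of the 352 lost intervals with 15 or more reads. Of its intervals, 37 of 58 in Dox-GSK and 65 of 178 in Dox had high background.

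At low background, the strongest shared intervals were in all 8 V5 lists and at RB of C4-2 alone. Without this limit, the highest fold of a shared Dox-GSK interval was 29.0 at RB sites of both lines and 23.5 at sites of C4-2 alone. The top low-background one, chr10:98561231-98561663, had a fold of 22.9 on 57 reads in Dox-GSK and 23.9 on 88 reads in Dox. Its RB fold was 17.8. At chr9:42415895-42416238 the fold was 21.2 in Dox-GSK and 19.1 in Dox, and at chr9:70327324-70327673 it was 19.7 in Dox-GSK and 21.6 in Dox. None of the 10 strongest at low background had RB in VCaP, and 3 had the higher fold in Dox-GSK and 7 in Dox. The pair with the highest ratio was chr1:249200781-249201020, with a fold of 13.7 in Dox-GSK and 4.76 in Dox, a ratio of 2.88. The lowest ratio was at chr2:51581271-51581467, with 6.06 in Dox-GSK and 13.9 in Dox, a ratio of 0.435. Of the 5 lowest pairs, 4 had no RB interval and 1 was at an RB site of both lines. Of the 5 highest, 3 were at RB sites of C4-2 alone, 1 was at a site of both lines and 1 had no RB interval.

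The classes differed in how often the other 6 V5 lists held an interval at the same place. None of the 6 did for 65.9% of gained, 17.7% of shared and 74.8% of lost intervals. All 6 did for 30.5% of shared intervals, against 0.0800% of gained and 0.0463% of lost ones. Gained intervals at C4-2 RB were found in another V5 list more often than gained intervals with no RB, 53.9% against 27.9%. The other V5 lists differ in length, from 2805 to 55681 intervals, and a longer list has more chances to overlap.

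At the 446 low-background RB sites of both lines with V5 in Dox-GSK alone, V5 was also present in WT GSK at 165 (37.0%) and in untreated WT at 124 (27.8%). It was present in K185R Dox-GSK at 5 (1.12%), K185R Dox at 14 (3.14%), K185R GSK at 43 (9.64%) and untreated K185R at 32 (7.17%). The 338 sites of C4-2 alone with V5 in both lists looked otherwise, with V5 in the K185R lists at 66.3% to 88.8%. The 223 sites of C4-2 alone with V5 in Dox only had V5 in untreated K185R at 71.7% and in K185R Dox-GSK at 19.7%. Counting all 4 WT lists, 108 sites had V5 in both lists with GSK2879552 and in neither without it, 92 of them RB sites of both lines. The reverse held at 99 sites, 78 of them of C4-2 alone.

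**Figure D5:**
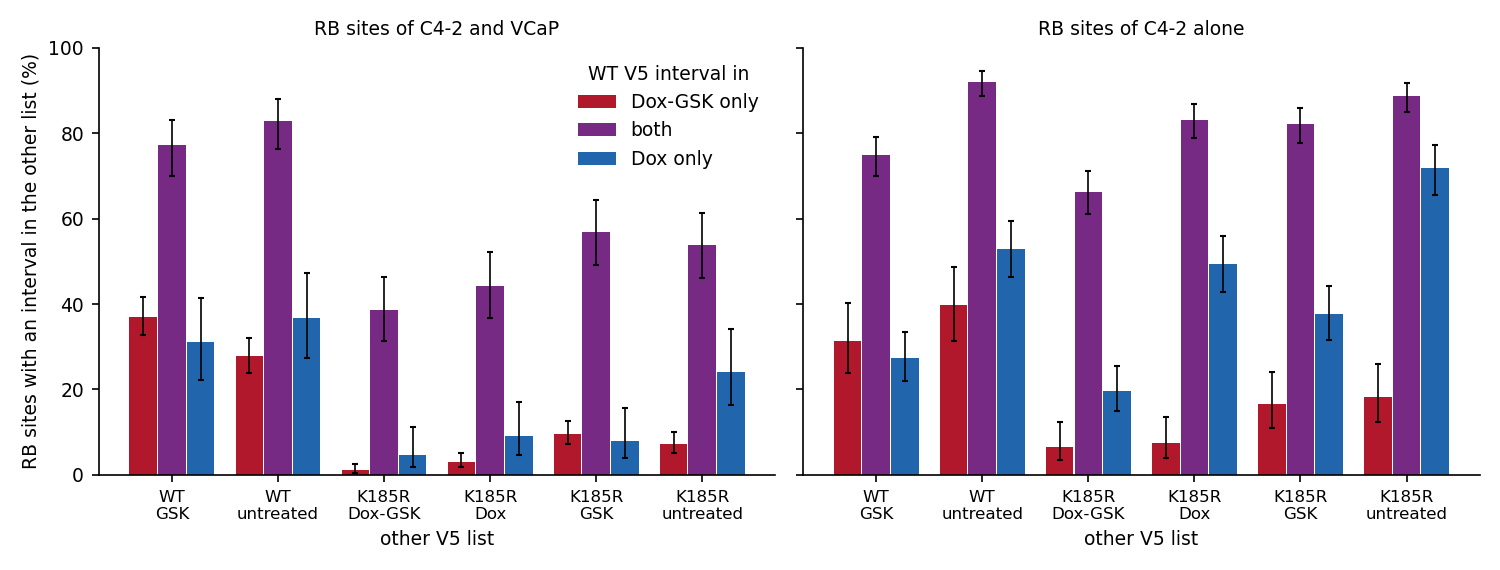
Share of low-background RB sites with a V5 interval in each of the other 6 V5 lists, in percent, for sites with V5 in Dox-GSK only (red), in both (purple) and in Dox only (blue); bars are shares with 95% Wilson intervals, left for RB sites of both cell lines and right for those of C4-2 alone. On the left the red bars reach 37.0% in WT GSK and stay under 10% in the K185R lists.

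The same counts for the other pairs of lists stood as follows, with no test of the differences between pairs. At low-background RB sites of both lines, V5 was in WT GSK alone at 291 and in untreated WT alone at 211, while 11 had it in K185R Dox-GSK alone and 40 in K185R Dox alone. K185R GSK alone had it at 76 and untreated K185R alone at 74. At sites of C4-2 alone, 121 had V5 in WT GSK alone and 264 in untreated WT alone, and 27 had it in K185R Dox-GSK alone and 172 in K185R Dox alone. K185R GSK alone had it at 55 and untreated K185R alone at 208. At RB of both lines the list with GSK2879552 had more such sites in both WT pairs. It had fewer in the K185R pair with doxycycline and about as many in the K185R pair without it. Of the WT lists, Dox held V5 at the fewest low-background sites of both lines. It had 245, against 449 in untreated WT, 529 in WT GSK and 604 in Dox-GSK. At RB of C4-2 alone the list with GSK2879552 had fewer sites in all 4 pairs.

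Over chromosomes, lost intervals outnumbered gained ones by 17.5 to 1 on chromosome 19 and by up to 35.7 to 1 on chromosome 13, leaving out the mitochondrial genome. The 3 windows of 5 megabases with most lost intervals lay side by side on chromosome 13 between positions 20000001 and 35000000, with 219 to 248 each, against a median of 108 over 606 windows. They held 4 to 7 gained intervals each. The untreated K185R list was also dense there, at 1.64 to 1.89 times its own median. The Dox-GSK list was at 1.67 times its own median in each of them.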

How the data were processed

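The series holds 19 ChIP-seq libraries in 10 groups, and per the labels' protocols they were prepared with the SMARTer ThruPLEX kit. Build hg19, the peak caller MACS2 2.1.0, the aligner BWA 0.7.9a, SAMtools 1.2 and FastQC 0.11.9 are listed in the submitters' processing notes. How each was set, and whether duplicates were removed or a control was used, is not given in the sources used here. Each group has 1 deposited list of intervals, and in the V5 lists the word merged stands in every interval name.

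For each interval the authors deposited a fold enrichment (a linear ratio), p-values and q-values on the −log10 scale, and the summit position. MACS2 computes the fold after adding 1 read above and below the line, and p by a Poisson model, so the pair was solved for summit reads and local background. The deposited −log10 p was met within 0.000163 throughout. The floor of a list is the lowest background shared by 5 or more of its intervals. The method was tested on simulated intervals. Depth is the floor divided by the smallest interval width. Expected numbers at lower depth were computed from the Poisson distribution, without drawing reads. Local background is apparently estimated from the ChIP library itself.

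Intervals were shared at an overlap of at least 1 base. Shares carry 95% Wilson intervals, which cover counting error only, since intervals are not replicates and PCR reads without molecular identifiers are not independent molecules. Named intervals are the 10 of highest −log10 q at low background in each of 5 classes (gained or lost, at C4-2 RB or elsewhere, and shared), plus the 5 shared pairs with the highest and the 5 with the lowest ratio of fold. Several of each are printed. The comparison, its classes and these rules were chosen with earlier results of these data known. Computation used Python 3.11.15, numpy 2.4.6, pandas 2.3.3 and SciPy 1.17.1. Alternatives were a stricter q, a minimum of summit reads, low background, thinning to the lower depth, other overlaps, the 1000 strongest intervals, covered bases, VCaP RB sites and leaving out chromosome Y. Genes near intervals, base composition and motifs were not analysed here, because the positions are on hg19 and no annotation or genome of that build was used.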

Additional observations from a re-analysis of the deposited data

Results flagged for a closer look

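The difference between Dox-GSK and Dox in V5 at RB sites had opposite signs for the 2 forms of E2F1. Over all C4-2 RB sites, the share holding a V5 interval was 2.06 percentage points higher in Dox-GSK than in Dox for WT E2F1 (1271 sites in Dox-GSK and 1083 in Dox). For K185R E2F1 the difference was -2.46 points (555 sites in Dox-GSK and 780 in Dox). Without doxycycline the difference between GSK2879552 and untreated cells was -1.56 points for WT and -2.36 points for K185R. Each value rests on 1 list per group, and the difference between the forms was not tested. The lists differ in depth, at 0.812 reads per kilobase in WT Dox-GSK and 1.40 in WT Dox, and at 0.837 in K185R Dox-GSK and 1.12 in K185R Dox, and the part of depth in the K185R value was not tested.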

How the results depend on the processing

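The results at RB sites kept their direction under every alternative that gave a value. Dox-GSK had fewer intervals than Dox in every alternative that counted them. The shared and lost shares have no direction that could change. The number of Dox-GSK intervals over Dox intervals, 0.0605 as deposited, was 0.261 at −log10 q of at least 5, 0.265 at 8 or more summit reads, 0.0544 without high background, 0.0691 in covered bases and 0.101 with Dox thinned to the Dox-GSK depth. The share of Dox-GSK intervals found in Dox, 35.4% as deposited, was 55.6%, 59.5% and 27.7% under the first 3 of these, 50.0% for the 1000 strongest intervals of each list, 29.9% at an overlap of 50% of both intervals, 29.3% with summits within 100 bases and 29.1% with Dox thinned to the Dox-GSK depth. The share of Dox intervals lost, 97.9% as deposited, was 85.5%, 84.2%, 98.5%, 50.5%, 98.2%, 98.2% and 97.1% under the same 7, and the last of these counts expected intervals.

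The share of C4-2 RB sites with V5 was 2.06 percentage points higher in Dox-GSK than in Dox. This difference was 0.754 points at −log10 q of at least 5, 0.405 at 8 or more summit reads, 3.95 without high background and 3.36 with Dox thinned to the Dox-GSK depth. The counting intervals of the first 2 hold 0, but treat the lists as independent although both were scored on the same sites. An interval of the paired difference was not computed. At −log10 q of at least 5, Dox-GSK alone had V5 at 237 sites of both lines and Dox alone at 53. At sites of C4-2 alone these counts were 82 and 197. At RB sites of both lines, the ratio of Dox-GSK alone to Dox alone, 3.82 as deposited, was 5.65 without high background, 9.08 for the 1000 strongest, 3.12 with summits within 100 bases and 5.57 with Dox thinned to the Dox-GSK depth. For RB sites of C4-2 alone, the ratio of 0.464 was 0.844 without high background, 0.920 for the 1000 strongest, 0.320 at 8 or more summit reads and 0.635 with Dox thinned to the Dox-GSK depth. The cause of these shifts was not tested. Without chromosome Y every result moved by less than its counting interval. The minimum of 8 reads and the removal of chromosome Y were chosen after seeing the data.

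No paired analysis was possible because each group is 1 deposited list of merged libraries, and for the same reason leaving out a replicate was not possible. Other settings for nearby genes, base composition and motifs were not run. Depth limits the thin intervals most, and 50.2% of Dox-GSK and 66.2% of Dox intervals rest on 5 or fewer summit reads.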

Other observations

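The mitochondrial genome was the only chromosome with more intervals in Dox-GSK than in Dox, 5 against 2. All of these had high background, 3 were gained and none was lost. On chromosome Y no gained interval lay at an RB site, although 128 of the C4-2 RB intervals (1.40%) are there. The share of gained intervals at C4-2 RB was highest on chromosome 19 (21 of 62, 33.9%) and lowest, among the autosomes, on chromosome 13 (4 of 53, 7.55%). These are values of single lists, and chromosomes differ in how many RB intervals they hold, with 434 on chromosome 19 and 143 on chromosome 13.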
